A study of Homo sapiens with 10 samples.

Results

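Glycolysis and hypoxia response genes are 40 genes chosen by symbol: 4 transporters of glucose and lactate, 17 glycolytic enzymes, 4 glycolysis regulators, 4 genes of oxygen sensing and 11 targets of the hypoxia response. All 40 were among the 26256 genes counted in MCF10A and G12V cells and among the 55736 genes counted in the Nutlin-3a experiment, and all passed the filter on low counts in both, which kept 14376 and 13529 genes. MCF10A is an established, non-transformed line of human breast epithelial cells. The parental cells (2 libraries) were compared with G12V cells (2 libraries, genotype H-RAS Gv12), a hygromycin-selected population of MCF10A cells that received the G12V HRas oncogene by lentivirus together with a GFP vector, both untreated. Parental MCF10A cells given 10 µM Nutlin-3a, an inhibitor of the MDM2-p53 interaction, for 4 h (3 libraries) were compared with the same cells given the vehicle DMSO for 4 h (3 libraries). The libraries are biological replicates by their labels, but separate cultures are not described, so the p-values measure the spread between these libraries, which may in part be technical.

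Glycolysis splits glucose into pyruvate, and lactate dehydrogenase turns the pyruvate into lactate, which leaves the cell with a proton through monocarboxylate transporters. In oxygen, prolyl hydroxylases of the EGLN family mark the HIF-α proteins for destruction by the VHL ubiquitin ligase. When oxygen is low the HIF-α proteins stay, pair with ARNT and bind the core of the hypoxia response element near genes of glucose uptake, glycolysis, acid handling and vessel growth. Many tumours and cultured cells keep glycolysis high in oxygen, and p53 adds a further branch through TIGAR, an enzyme that lowers fructose-2,6-bisphosphate.

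The total counts were 21538593 to 23683975 per library in MCF10A and G12V cells and 15453226 to 17378734 in the Nutlin-3a experiment. HRAS, the introduced gene, had 72.6 and 65.9 CPM (counts scaled to library size with edgeR's TMM factors) in MCF10A and 631 and 515 CPM in G12V cells. The epithelial label was read from 7 markers (CDH1, EPCAM, DSP, KRT5, KRT14, KRT8 and KRT18), whose summed level was 5617 and 6952 CPM in MCF10A, 1495 and 1838 CPM in G12V cells and 3927 to 6468 CPM in the 6 libraries of the Nutlin-3a experiment. CDH1, EPCAM, DSP, KRT5 and KRT14 were called lower in G12V cells, with CDH1 at 10 and 12 counts and KRT14 at 2 and 3 counts there. The other 2, KRT8 and KRT18, were not called, and 1 of them lay above 0 (0.18 on the log2 scale). Of the markers of other cells, PTPRC and CD3E had at most 1 count in a library of MCF10A or G12V cells and at most 2 counts in the Nutlin-3a experiment, and PECAM1 had 1.68 to 3.51 CPM in MCF10A and G12V cells, with no difference called. The fall of the 5 epithelial markers called lower moves with every difference between MCF10A and G12V cells below, and its part in them was not tested. In bulk RNA a loss of cells that express a gene and less RNA per cell cannot be told apart.

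The question of the first comparison was which of these genes differed once MCF10A cells carried the G12V HRas oncogene. The oxygen sensor EGLN3, the transcription factor HIF1A, the hypoxia targets VEGFA, ADM, CA9 and CA12 and the enolase isoenzyme ENO2 were called higher in G12V cells. The glucose transporter SLC2A1 was called lower. The rises ran from a log2 fold change (log2FC, G12V minus MCF10A) of 0.92 (standard error, SE, 0.21) for CA12 to 4.88 (SE 0.34) for EGLN3, and SLC2A1 fell by 1.16 (SE 0.21) on the log2 scale. The call of CA9 was lost with DESeq2 and that of CA12 under another scaling. NDRG1 (-1.80, SE 0.46) and ALDOC (1.90, SE 0.48) were not called here, but DESeq2 called NDRG1 lower and ALDOC higher. Of the 17 glycolytic enzymes, 16 were not called, and GAPDH, ALDOA, PKM, LDHA, TPI1 and PGK1 lay within 0.25 of 0 on the log2 scale.

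A gene was called when its adjusted p was under 0.05 and its log2FC passed 0.5 in size. The p-values come from the quasi-likelihood (QL) test of edgeR and were adjusted by Benjamini-Hochberg over all tested genes. By this rule 8 of the 40 genes (20.0%) were called, against 11.0% of all tested genes. The 7 called higher (17.5%) compare with 5.01% of all genes, and the 1 called lower (2.50%) with 5.95%. The median log2FC over the 40 genes was 0.22, with 30 above and 10 below 0, and over all tested genes it was 0.00. In 28 of the 40 genes no library of one group reached into the range of the other, against 54.8% of all tested genes. In 21 of them G12V cells were higher (27.5% of all genes) and in 7 lower (27.4%). Calls depended on MCF10A replicate 1: without it no gene was called among 14883 tested, although 2830 genes and 11 of the 40 reached p under 0.05 before adjustment, against 3676 (25.6%) and 15 with all libraries. DESeq2 called 10 of the 40 genes (16.0% of all genes) and edgeR's exact test 11 (17.6%).

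**Figure D1:**
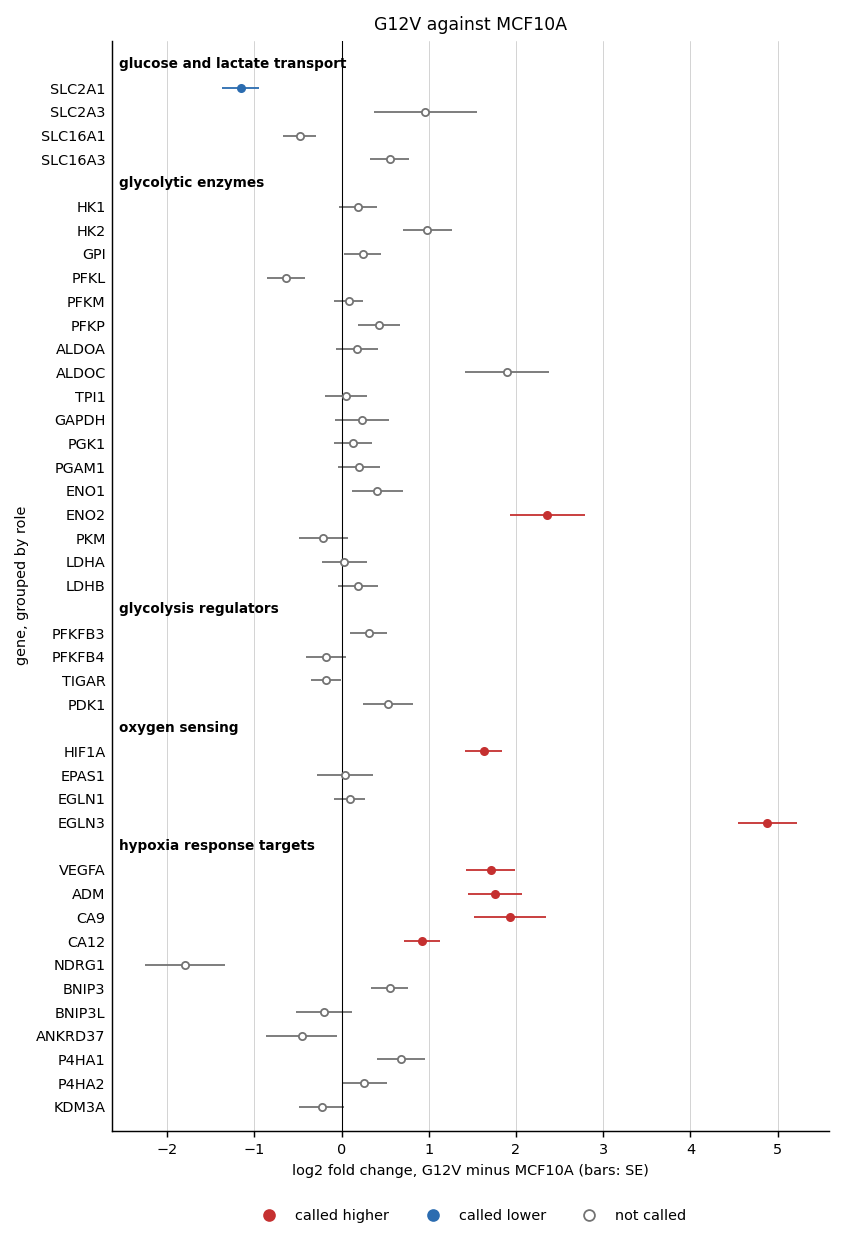
Log2FC of each of the 40 genes in G12V against MCF10A cells (x axis, bars are the SE), grouped by role. EGLN3 stands farthest to the right at 4.88, the other genes called higher lie between 0.92 and 2.36, and SLC2A1 is the 1 gene called lower.

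Promoters are shown for the 3 genes with the largest rises and for the gene that fell, because HIF acts through the hypoxia response element. Its core was searched as ACGTG or GCGTG on either strand in the 250 bases before each transcription start of RefSeq (GRCh38.p14, a later build than the hg19 coordinates of the counts), and a core inside the E-box CACGTG counts on both strands. Promoters were matched for 35 of the 40 genes. Capitals mark the core, and the sequences read 5′ to 3′ towards the start of the gene.
EGLN3, chr14:33951075-33951324, minus strand: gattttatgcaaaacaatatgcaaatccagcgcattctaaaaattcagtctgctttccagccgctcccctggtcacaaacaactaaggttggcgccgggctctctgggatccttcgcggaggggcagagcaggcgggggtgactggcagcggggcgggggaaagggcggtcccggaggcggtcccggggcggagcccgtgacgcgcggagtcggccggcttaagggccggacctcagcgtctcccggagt
ENO2, chr12:6914330-6914579, plus strand: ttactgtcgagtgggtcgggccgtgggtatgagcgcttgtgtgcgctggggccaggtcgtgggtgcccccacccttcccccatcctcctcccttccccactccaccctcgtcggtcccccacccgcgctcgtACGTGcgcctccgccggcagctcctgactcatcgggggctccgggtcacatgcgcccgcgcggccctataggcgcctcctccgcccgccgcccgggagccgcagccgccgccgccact
CA9, chr9:35673678-35673927, plus strand: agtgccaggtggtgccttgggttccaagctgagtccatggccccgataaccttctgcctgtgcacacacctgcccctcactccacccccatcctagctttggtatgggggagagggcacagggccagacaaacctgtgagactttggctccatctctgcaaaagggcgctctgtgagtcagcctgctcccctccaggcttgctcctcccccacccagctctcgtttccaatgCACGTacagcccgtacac
SLC2A1, chr1:42958869-42959118, minus strand: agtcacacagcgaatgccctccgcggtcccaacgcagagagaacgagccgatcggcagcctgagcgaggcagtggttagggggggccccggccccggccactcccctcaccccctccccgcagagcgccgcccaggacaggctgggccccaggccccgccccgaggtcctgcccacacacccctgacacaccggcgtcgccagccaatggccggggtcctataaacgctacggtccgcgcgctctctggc
ENO2 and CA9 each held 1 core in this window, the latter read on the opposite strand, and neither EGLN3 nor SLC2A1 held one. A core was found in 60.3% of the 63 windows of these genes and in 43.2% of all 35116 windows. Windows of genes that did not pass the test held it too, with 6 cores before BNIP3 and 5 before a start of LDHA. A match is a string of letters and not a site of binding, and no match says only that the letters are not in these 250 bases.

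Among the oxygen-sensing genes, EGLN3, a prolyl hydroxylase that is itself a HIF target, had 0.954 and 0.617 CPM (21 and 14 counts) in MCF10A and 23.6 and 23.0 CPM (551 and 515 counts) in G12V cells. Both G12V libraries were far above both MCF10A libraries. The log2FC of 4.88 (SE 0.34, adjusted p = 0.00140, edgeR) is 29.5-fold. EGLN3 lies on chromosome 14 from 34393421 to 34420284 on the minus strand (hg19). Per kb of its transcript it went from 0.290 CPM, the lowest of the 40 genes together with CA9 (0.318 CPM, within the spread), to 8.61 CPM, position 32 of 40. EGLN1, the hydroxylase held to set HIF-1α levels in most cells, had 169.8 and 195 CPM in MCF10A and 198 and 191 CPM in G12V cells, overlapping groups with a log2FC of 0.09 (SE 0.18).

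HIF1A encodes HIF-1α, the oxygen-regulated subunit of the HIF-1 dimer. It had 204 and 199 CPM in MCF10A and 571 and 677 CPM in G12V cells. The G12V libraries were both higher, by 3.10-fold (log2FC 1.63, SE 0.21, adjusted p = 0.00828, edgeR). Its gene spans 62162119 to 62214977 on chromosome 14, and the antisense genes that overlap it had a mean of 4 and 5 counts per library. EPAS1, which encodes HIF-2α, had 310.1 and 458 CPM in MCF10A and 304 and 487 CPM in G12V cells, where the spread between replicates was larger than the difference (log2FC 0.04, SE 0.32). The log2 ratio of EPAS1 to HIF1A within a library was 0.60 and 1.21 in the MCF10A libraries but -0.91 and -0.48 in G12V cells. Without MCF10A replicate 1 the log2FC was 5.25 for EGLN3 (adjusted p = 0.0653) and 1.67 for HIF1A (adjusted p = 0.110, edgeR). Levels of mRNA do not give the amount of HIF-α protein, which oxygen controls after translation.

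**Figure D2:**
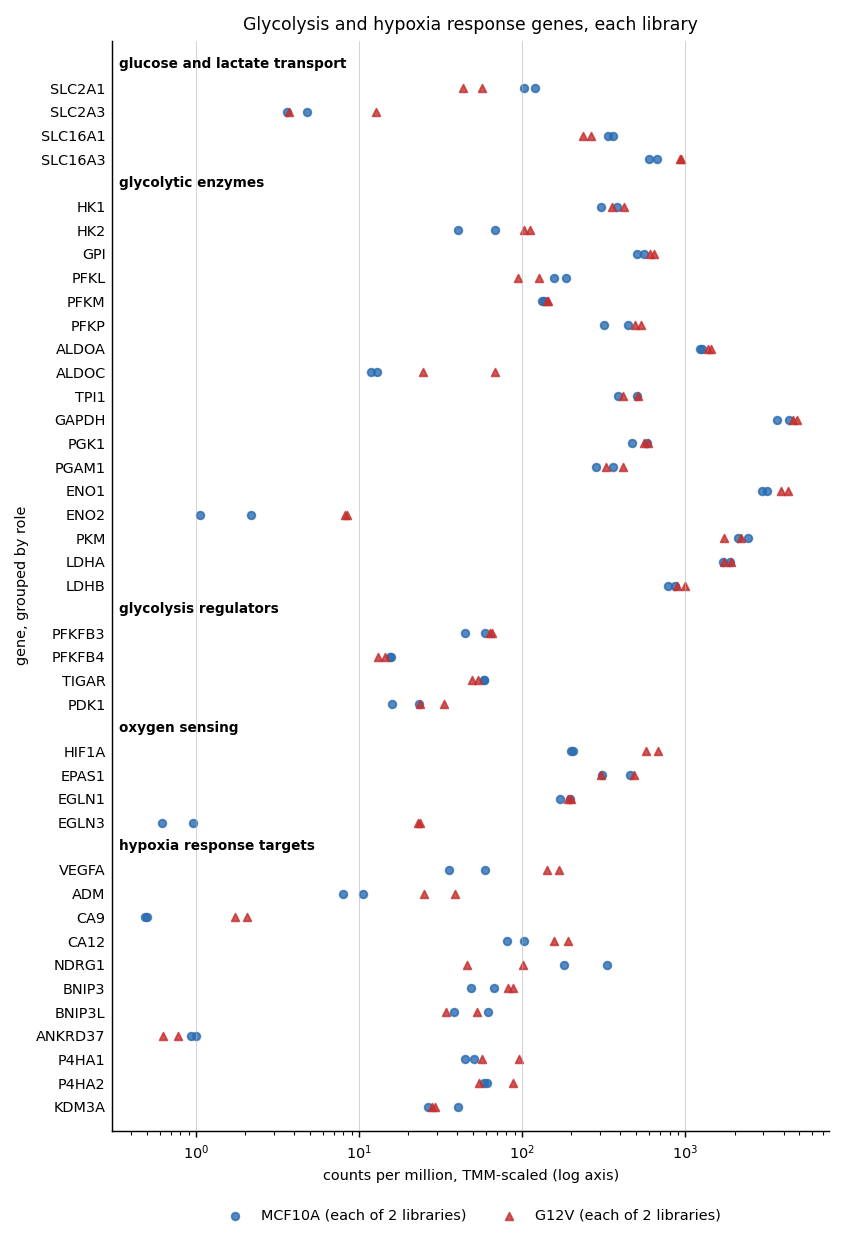
CPM (x axis, log scale, TMM-scaled) of each of the 40 genes in the 2 MCF10A libraries (circles) and the 2 G12V libraries (triangles). The groups stand clearly apart for EGLN3, HIF1A, VEGFA, ADM, CA9 and ENO2, while LDHA, PKM, TPI1 and PGK1 overlap.

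Of the 11 hypoxia targets, 4 were called higher, none lower and 7 were not called. Of all tested genes 5.01% were called higher and 5.95% lower. The median log2FC of the 11 was 0.55. DESeq2 called 3 of them higher and 1 lower (16.0% of all genes called in either direction). With edgeR's exact test it was 4 and 1 (17.6%), and the lower gene was NDRG1 in both. SLC2A1, also a HIF target, was called lower but is counted among the transporters. VEGFA, the growth factor of blood vessels, had 59.2 and 35.7 CPM in MCF10A and 141 and 169 CPM in G12V cells, and ADM, the vasodilator peptide adrenomedullin, had 8.0 and 10.6 against 38.5 and 24.8 CPM. Every G12V library lay above every MCF10A library for both genes. VEGFA rose 3.26-fold (log2FC 1.71, SE 0.28, adjusted p = 0.0167) and ADM 3.40-fold (log2FC 1.76, SE 0.31, adjusted p = 0.0203) in edgeR's quasi-likelihood test. Without MCF10A replicate 1 the adjusted p was 0.0823 for VEGFA and 0.206 for ADM, with log2FC of 2.14 and 1.60. VEGFA lies on chromosome 6 from 43737946 to 43754223 and ADM on chromosome 11 from 10326527 to 10328949 (hg19).

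CA9 and CA12 encode carbonic anhydrases of the cell surface, which handle the acid that glycolysis makes. CA9 rose 3.82-fold from a very low level, 11 counts in each MCF10A library to 48 and 39 counts in G12V cells, or 0.50 and 0.484 against 2.05 and 1.74 CPM. Its log2FC was 1.93 (SE 0.41, adjusted p = 0.0344, edgeR), but DESeq2 gave an adjusted p of 0.0530, and it was not called when any 1 of the 4 libraries was left out (adjusted p 0.0515 to 0.202). CA12 was far more abundant, with 80.2 and 102 CPM in MCF10A and 156 and 190.5 CPM in G12V cells. Its rise of 0.92 (SE 0.21, adjusted p = 0.0470, edgeR) was the smallest of those called. That call was lost with relative log expression factors (adjusted p = 0.0504), with no filter (0.0617), and without MCF10A replicate 1 (0.231), MCF10A replicate 2 (0.0531) or G12V replicate 2 (0.128). Despite the larger fold of CA9, CA12 still had 28.4 CPM per kb in G12V cells and CA9 1.23 CPM per kb.

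NDRG1, a stress-induced gene and a standard hypoxia marker, had the lowest log2FC of the 40 genes but was not called. It had 179.8 and 329.8 CPM in MCF10A and 45.6 and 101 CPM in G12V cells, so that both G12V libraries were lower although the replicates of each group differed widely. The log2FC of -1.80 (SE 0.46) missed the threshold in the QL test of edgeR (adjusted p = 0.0617). DESeq2 (adjusted p = 5.85e-04) and edgeR's exact test (adjusted p = 0.00198) called it, as did the QL test with library totals alone (0.0429), without G12V replicate 1 (0.0383) and without G12V replicate 2 (0.00194).

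The remaining hypoxia targets were not called. BNIP3, a mitophagy receptor, had 48.8 and 67.3 CPM in MCF10A and 82.1 and 87.7 CPM in G12V cells (log2FC 0.55, SE 0.21, adjusted p = 0.177, edgeR), and its relative BNIP3L had -0.20 (SE 0.32). P4HA1, a collagen prolyl hydroxylase subunit, had 44.3 and 50.7 against 56.4 and 95.9 CPM. Its log2FC of 0.68 (SE 0.28) was 0.25 without G12V replicate 2 and passed the test without G12V replicate 1 (1.01, adjusted p = 0.0222, edgeR). P4HA2 had 0.26 (SE 0.26), the histone demethylase KDM3A -0.23 (SE 0.26) and ANKRD37 -0.46 (SE 0.41) at 14 to 22 counts per library. ANKRD37 overlaps UFSP2, P4HA2 overlaps its antisense gene and neither the labels nor the methods state whether strand was used in counting, so their reads cannot be assigned with certainty.

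SLC2A1 encodes GLUT1, the main glucose transporter of most cultured cells, and is a classical HIF target. It had 120.2 and 103 CPM in MCF10A and 56.7 and 43.2 CPM in G12V cells. Both G12V libraries were below both MCF10A libraries, by 2.24-fold (log2FC -1.16, SE 0.21, adjusted p = 0.0222, edgeR). The call was lost without MCF10A replicate 1 (-1.02, adjusted p = 0.208) and without G12V replicate 2 (-0.98, adjusted p = 0.0556, edgeR). SLC2A1 lies on chromosome 1 from 43391046 to 43424847 on the minus strand (hg19), and its antisense gene had a mean of 4 counts per library.

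SLC2A3, which encodes the neuronal glucose transporter GLUT3, had 3.59 and 4.80 CPM in MCF10A and 3.72 and 12.6 CPM in G12V cells. Its log2FC of 0.96 (SE 0.59, adjusted p = 0.385, edgeR) rests on G12V replicate 2, without which it was -0.17, while without G12V replicate 1 it was 1.59 and called (adjusted p = 0.0203). The lactate exporter SLC16A3 (MCT4) had 669.6 and 602 CPM in MCF10A and 942 and 921 CPM in G12V cells, and SLC16A1 (MCT1) had 360.0 and 335 against 264 and 234 CPM. Neither was called (log2FC 0.55, SE 0.22, and -0.48, SE 0.19). The log2 ratio of SLC16A3 to SLC16A1 was 0.90 and 0.84 in the MCF10A libraries and 1.84 and 1.98 in G12V cells, a difference of 1.04.

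Glycolytic enzymes held the 5 highest levels of the 40 genes. In MCF10A the highest levels per kb of transcript were those of GAPDH (3106 ± 385 CPM per kb, SD, n = 2), ENO1 (1713 ± 90.9), PKM (979 ± 100.3), LDHA (797 ± 59.3) and ALDOA (758 ± 13.4), where the order of the last 2 is within the spread. The same 5 genes led in G12V cells. GAPDH, which oxidises glyceraldehyde-3-phosphate and is often used as a reference gene, had 3642 and 4341 CPM in MCF10A and 4547 and 4818 CPM in G12V cells (log2FC 0.23, SE 0.31, adjusted p = 0.719, edgeR). LDHA, the lactate dehydrogenase subunit of glycolytic tissue, had 1881 and 1693 against 1913 and 1732 CPM, and PKM, pyruvate kinase, had 2421 and 2094 against 2188 and 1715 CPM. Both overlapped between groups, with log2FC of 0.03 (SE 0.26) and -0.21 (SE 0.28). Over the 17 enzymes the median was 0.19, and 15 values were above 0, also with library totals alone and with relative log expression factors. Without MCF10A replicate 2, TPI1 (-0.13), PGK1 (-0.02) and LDHA (-0.05) lay below 0. So did TPI1 (-0.11) and LDHA (-0.05) without G12V replicate 1, and the other enzymes kept their sign in both fits.

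ENO2, the enolase isoenzyme of neurons, was the 1 enzyme called higher. It had 2.18 and 1.06 CPM (48 and 24 counts) in MCF10A and 8.21 and 8.39 CPM (192 and 188 counts) in G12V cells. The MCF10A libraries differed from each other and both lay below the G12V libraries, by 5.12-fold on average (log2FC 2.36, SE 0.43, adjusted p = 0.0233, edgeR). Without MCF10A replicate 1 the log2FC was 2.99 and was no longer called (adjusted p = 0.102, edgeR), and without MCF10A replicate 2 it was 1.92. ENO2 lies on chromosome 12 from 7023614 to 7032859 (hg19). Even in G12V cells its level of 3.62 CPM per kb was far under the 2278 CPM per kb of ENO1, the ubiquitous enolase, so that the log2 ratio of ENO2 to ENO1 went from -10.50 and -11.44 to -8.88 and -8.99.

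ALDOC and HK2, a minor and an inducible isoenzyme, had higher values in both G12V libraries without being called. ALDOC, an aldolase of the brain, had 11.9 and 12.9 CPM in MCF10A and 24.7 and 68.2 CPM in G12V cells, a log2FC of 1.90 (SE 0.48, adjusted p = 0.0583, edgeR) that was 0.99 without G12V replicate 2. DESeq2 (adjusted p = 6.03e-04), edgeR's exact test (0.00193) and library totals alone (0.0429) called it, as did the fits without MCF10A replicate 2 (0.0424) and without G12V replicate 1 (6.38e-05). HK2, the inducible hexokinase, had 68.5 and 40.1 CPM in MCF10A and 111 and 103 CPM in G12V cells (log2FC 0.98, SE 0.28). Its adjusted p was 0.0820 in the QL test of edgeR, 0.0209 with DESeq2 and 0.0161 with edgeR's exact test. HK1, the constitutive hexokinase, overlapped between groups with 0.19 (SE 0.22).

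The phosphofructokinase subunits had log2FC of both signs. PFKL, the liver type, had 185 and 157 CPM in MCF10A and 126 and 93.7 CPM in G12V cells (log2FC -0.64, SE 0.22), PFKP, the platelet type, had 444 and 318 against 490.2 and 533 CPM (0.43, SE 0.24), and PFKM, the muscle type, had 133 and 136 against 141 and 144 CPM (0.08, SE 0.17). None was called, but the log2 ratio of PFKP to PFKL was 1.26 and 1.02 in the MCF10A libraries and 1.96 and 2.51 in G12V cells. PFKM overlaps SENP1 on the opposite strand, which had a mean of 773 counts per library. The other enzymes GPI, ALDOA, TPI1, PGK1, PGAM1, ENO1 and LDHB had log2FC of 0.05 to 0.41, and none passed the test.

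**Figure D3:**
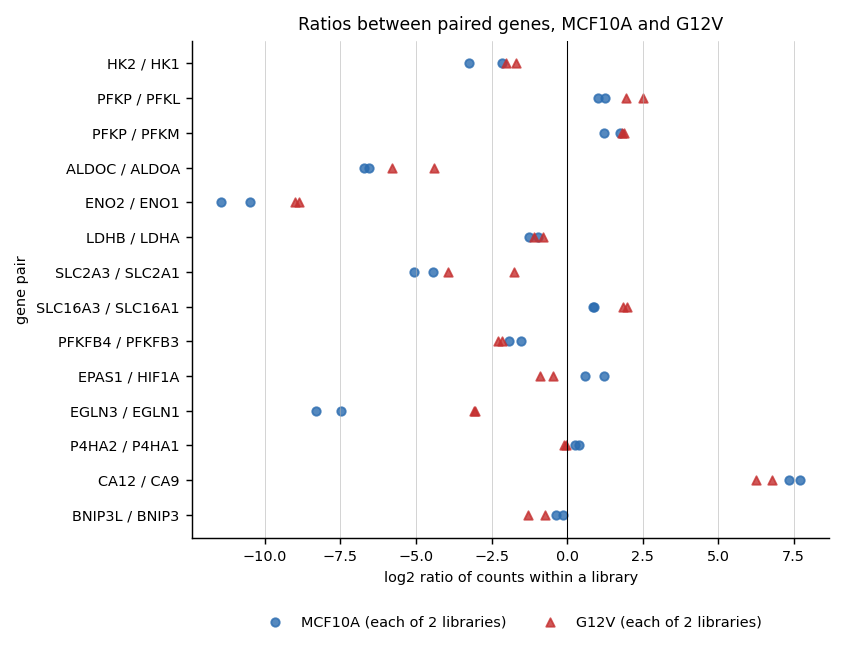
Log2 ratio of counts (x axis) between the 2 genes of each pair (y axis) within each MCF10A library (circles) and each G12V library (triangles). The ratios of EGLN3 to EGLN1, ENO2 to ENO1 and SLC2A3 to SLC2A1 lay to the right in G12V cells and that of EPAS1 to HIF1A to the left, while LDHB to LDHA overlapped.

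Such ratios do not depend on library depth or scaling, but with 2 libraries a group an exact two-sided permutation test cannot go below p = 0.333, so they are given as values without a test. From MCF10A to G12V cells the mean log2 ratio moved by 4.83 for EGLN3 to EGLN1, 2.04 for ENO2 to ENO1, 1.89 for SLC2A3 to SLC2A1, 1.55 for ALDOC to ALDOA and 0.84 for HK2 to HK1. The G12V libraries differed from each other in SLC2A3 to SLC2A1 (-3.93 and -1.77, against -5.06 and -4.43 in MCF10A) and in ALDOC to ALDOA (-5.80 and -4.40, against -6.73 and -6.57), so that the size of both shifts rests in large part on G12V replicate 2. It moved by -1.60 for EPAS1 to HIF1A, -1.01 for CA12 to CA9, -0.76 for BNIP3L to BNIP3, -0.50 for PFKFB4 to PFKFB3 and -0.41 for P4HA2 to P4HA1. LDHB to LDHA, which sets the mix of heart and muscle subunits in lactate dehydrogenase, moved by 0.16 with overlapping libraries.

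None of the 4 regulators was called. PFKFB3 and PFKFB4, which make and break fructose-2,6-bisphosphate, had log2FC of 0.31 (SE 0.21) and -0.18 (SE 0.23). PDK1, the kinase that keeps pyruvate out of the mitochondrial dehydrogenase, had 23.4 and 15.9 CPM in MCF10A and 33.1 and 23.6 CPM in G12V cells (0.53, SE 0.29, adjusted p = 0.336, edgeR). TIGAR had 58.3 and 57.9 CPM in MCF10A and 53.7 and 48.9 CPM in G12V cells (-0.18, SE 0.17).

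Other genes of these pathways were read from 5 further lists with 92 genes, of which 81 were tested. In these, 10 genes rose and 1 fell, against 5.01% and 5.95% of all tested genes, with a median log2FC of 0.15. Of 15 tested isoenzymes and sugar transporters, 3 rose: HKDC1, a hexokinase-like gene (2.29, SE 0.50, and 2.91 without MCF10A replicate 1), SLC16A7, the monocarboxylate transporter MCT2 (1.35, SE 0.19), and PGM2, a phosphoglucomutase (0.75, SE 0.17). Of 8 tested genes of the pentose phosphate pathway, which branches from glycolysis to make NADPH and ribose, 2 rose, among them RPIA, which makes ribose-5-phosphate (1.31, SE 0.23). PGD, an enzyme of the pathway that makes NADPH, had 0.84 (SE 0.21) and just missed the threshold (adjusted p = 0.0554, edgeR).

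Of 31 other hypoxia targets 5 rose and 1 fell, against the same 5.01% and 5.95% of all tested genes, so that 1 gene lower is no more than the background. The rises were those of LOXL2, a collagen cross-linking oxidase (2.39, SE 0.31), HMOX1, heme oxygenase (2.38, SE 0.44), STC2, a secreted stanniocalcin (1.36, SE 0.25), JMJD6 (1.35, SE 0.20) and GBE1, the glycogen branching enzyme (0.85, SE 0.19). CXCR4, a chemokine receptor, fell by 4.74 (SE 1.02) on the log2 scale, from 5.23 and 30.3 CPM to 0.299 and 1.03 CPM. The MCF10A libraries differed widely, and its log2FC was -2.98 without MCF10A replicate 2 and -5.87 without G12V replicate 2. No gene was called among the 13 of pyruvate entry and the pyruvate dehydrogenase complex (median -0.09) or the 14 regulators of the HIF pathway such as VHL, ARNT and HIF1AN (median -0.15). The calls over these lists were 0 without MCF10A replicate 1, 6 without MCF10A replicate 2, 18 with DESeq2 and 19 with edgeR's exact test.

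**Figure D4:**
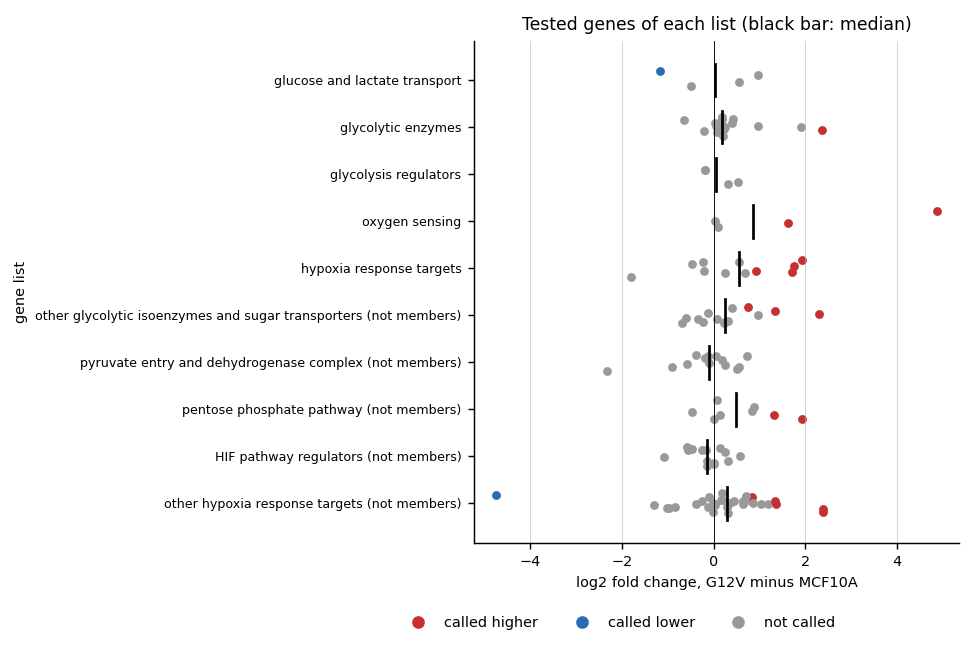
Log2FC in G12V against MCF10A cells (x axis) of each tested gene in the 5 groups of the 40 genes and the 5 further pathway lists (y axis), with a black bar at the median. The medians run from -0.15 for the HIF pathway regulators to 0.86 for the 4 genes of oxygen sensing, and EGLN3 at 4.88 and CXCR4 at -4.74 are the outermost points.

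In the second comparison, which asked how parental cells respond to 4 h of p53 stabilisation by Nutlin-3a, 39 of the 40 genes had overlapping groups, and TIGAR did not. The treatment itself was visible in the p53 targets CDKN1A, with 624 to 673 CPM in DMSO and 2688 to 3349 CPM with Nutlin-3a (log2FC 2.16, SE 0.13), and MDM2 (2.54, SE 0.18). The QL test of edgeR called 0 of the 40 genes, against 0.170% of all tested genes (23 genes). Before adjustment 1 of the 40 reached p under 0.05, against 3.42% of all genes. The median log2FC was 0.04 over the 40 genes and 0.01 over all genes, and the median absolute change was 0.06 against 0.10.

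TIGAR is a target of p53 and opposes PFKFB3 by lowering fructose-2,6-bisphosphate. It had 45.8, 55.7 and 71.3 CPM in DMSO and 79.6, 99.1 and 137 CPM with Nutlin-3a in replicates 1, 2 and 3. All 3 treated libraries lay above all 3 controls, the 1 gene of the 40 without overlap, against 8.07% of all tested genes. Both groups spread widely, and the log2FC of 0.87 (SE 0.22) did not pass the QL test of edgeR (adjusted p = 0.502). The replicate numbers were taken to pair the libraries of this experiment, a pairing read from these data that the labels do not state. Within these pairs TIGAR was 1.74-, 1.78- and 1.92-fold higher, a mean log2 difference of 0.86 ± 0.08 (SD, n = 3). With the replicate as a block, the log2FC was 0.86 and TIGAR was called (adjusted p = 8.19e-05, edgeR), the 1 of the 40 genes among 165 of all genes (1.22%). DESeq2 (adjusted p = 0.0280, 0.673% of all genes called) and edgeR's exact test (adjusted p = 0.0496, 0.621%) also called it without the block. The QL test with no filter called it too (adjusted p = 2.23e-06), at nearly the same log2FC of 0.86 and among 99 calls in 28681 tested genes. It was called in no QL fit that left out 1 library. TIGAR, listed under its older symbol C12orf5 in this table, lies on chromosome 12 from 4430370 to 4462338 (hg19).

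The other 39 genes had log2FC between -0.25 and 0.69 (adjusted p = 1.00 for each, edgeR), and the groups overlapped in each. The outer values belonged to ADM, with 19.4, 20.7 and 26.1 CPM in DMSO and 13.7, 19.0 and 23.0 CPM with Nutlin-3a (-0.25, SE 0.21), and to CA9, which rested on 2 to 40 counts per library (0.69, SE 0.80). CA9 overlaps ARHGEF39 on the opposite strand, which had a mean of 108 counts per library in this experiment. Its reads cannot be assigned with certainty, because the strand setting is not known. HIF1A had 263, 401 and 322 CPM in DMSO and 261, 372 and 297 CPM with Nutlin-3a, and SLC2A1 had 93.7, 67.7 and 106 against 89.9, 68.4 and 88.2 CPM. In both genes the replicates of a group differed by more than the treatment did (log2FC -0.09, SE 0.18, and -0.12, SE 0.18). The 17 enzymes lay between -0.12 and 0.17, with LDHA at -0.01 (SE 0.11) and GAPDH at 0.01 (SE 0.10). EGLN3 had 3.07 to 5.53 CPM over the 6 libraries (0.16, SE 0.24), and it shares part of its span with SPTSSA on the same strand. Glycolytic enzymes have many processed pseudogenes, and 15 of the 40 genes had 107 copies listed by symbol in this experiment, which held at most 0.911% of the counts of their gene. The share covers only reads assigned to a copy, so it does not show how many reads a gene lost to shared sequence. PGAM1 had 30.2 to 35.2 CPM here and 282 to 414 CPM in the table of MCF10A and G12V cells, which was counted on another annotation, so its level was not compared.

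Of the 77 tested genes in the 5 further pathway lists, 0 were called by the QL test of edgeR, and 0 reached p under 0.05 before adjustment. The replicate block also called 0 of them, with 8 at p under 0.05 before adjustment, against 1584 of all 13529 tested genes in the same fit. Of the 40 genes, 26 lay above 0 and 14 below, and 6 of these changed sign with library totals alone, so that no direction is given for the changes near 0.

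**Figure D5:**
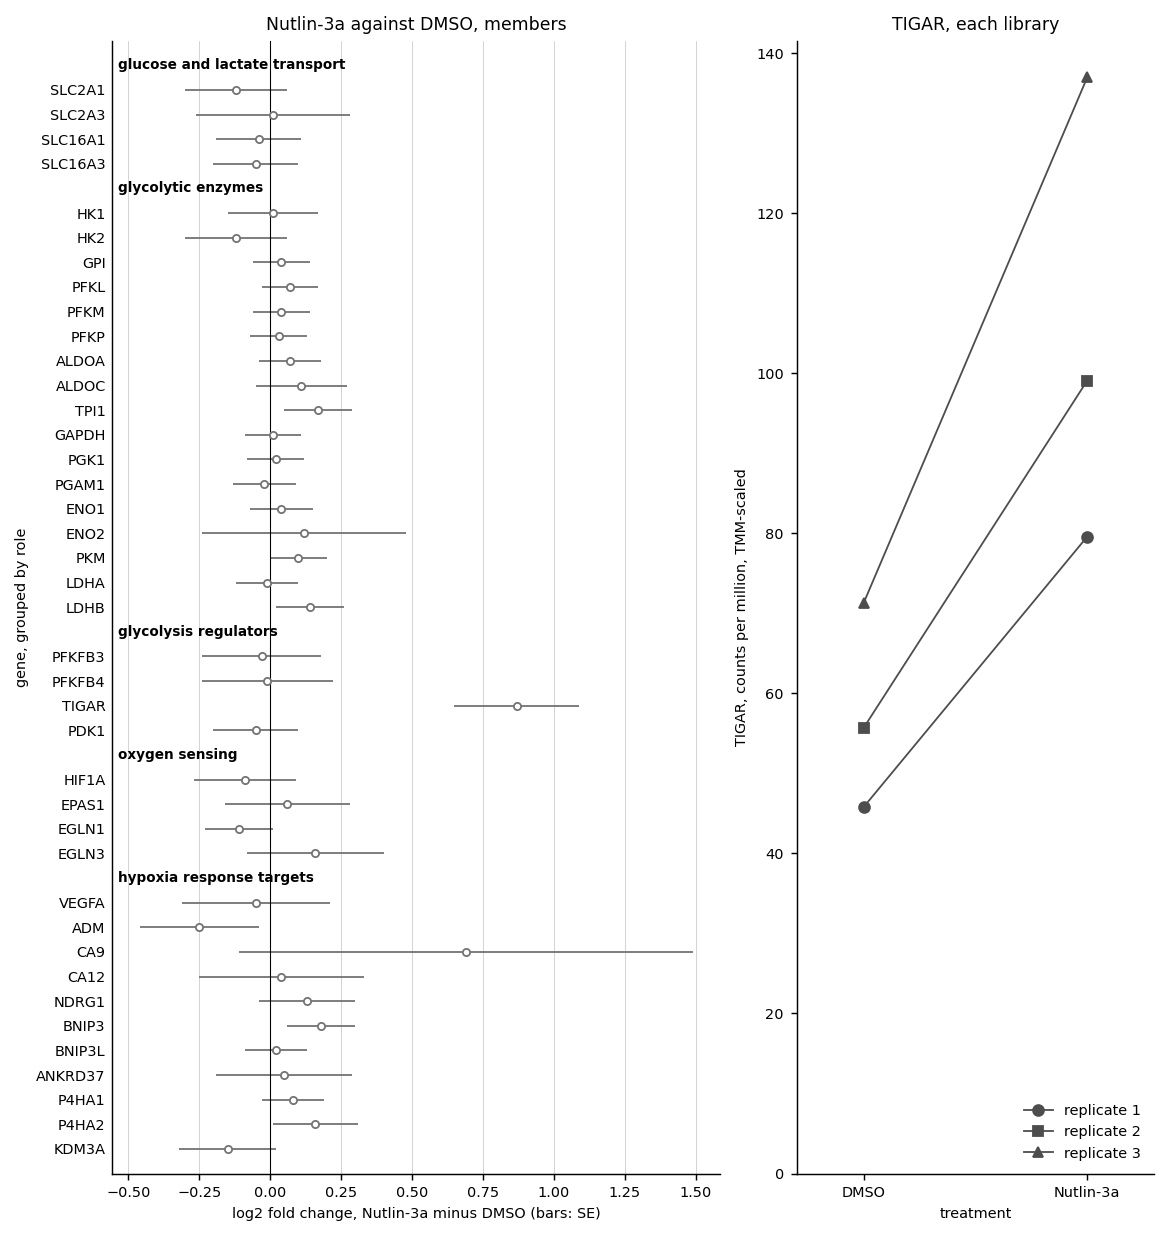
Left, log2FC of each of the 40 genes with Nutlin-3a against DMSO (x axis, bars are the SE, fit without the replicate block). Right, TIGAR in CPM in each library with lines between libraries of the same replicate number. TIGAR at 0.87 stands apart from the others, apart from CA9 with its wide error, and each of the 3 lines goes up.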

How the data were processed

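Poly(A) RNA was sequenced from 2 MCF10A, 2 G12V, 3 DMSO and 3 Nutlin-3a libraries. The authors aligned the reads to hg19 with TopHat, used HTSeq for counting, and deposited the raw counts per gene in 2 tables with different annotations, so levels were not compared between tables. The annotation and strand setting are not given in the sources used here. No libraries held identical counts. Groups come from the sample titles. The 40 genes were matched by symbol, with TIGAR and ERO1A found under older RefSeq symbols in the Nutlin-3a table.

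Each table was fitted over all genes with edgeR 4.0.16 (R 4.3.3, limma 3.58.1): filterByExpr, TMM, the quasi-likelihood test, a prior count of 0.125 and Benjamini-Hochberg adjustment. The SE was obtained by dividing the size of log2FC by the square root of its F. CPM use the TMM-scaled library sizes, and levels per kb divide them by the canonical GENCODE transcript. DESeq2 1.42.0, the exact test of edgeR, relative log expression factors, library totals alone, no filter, the replicate block and leaving out each library were run as alternatives. The fits were also run on simulated counts with the same dispersion for every gene and no deviation shared by libraries of a replicate number. That run therefore does not cover the shifts in calls between the fits.

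DMSO and Nutlin-3a libraries carry the same replicate numbers. Same-numbered libraries deviated together from their group means (correlations 0.65, 0.68 and 0.70). Deviations cancel out within a group, so the negative values for libraries of unequal number (-0.52 to -0.22) are not separate evidence. The numbers were taken to pair the libraries, which the labels do not state.

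The members, the further lists and the alternatives were chosen with earlier results of these data known. The text names all 40 genes, the called genes of the further lists, the markers, HRAS, CDKN1A and MDM2, except for some genes that are not reported here. Python 3.11.15 with pandas 2.3.3, numpy 2.4.6 and matplotlib 3.10.9 was used for ratios, promoters and figures.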

Additional observations from a re-analysis of the deposited data

How the results depend on the processing

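Between MCF10A and G12V cells, the number of called genes over all genes was 1575, with 2536 by edgeR's exact test and 4158 with the replicate block, and 0 to 2129 when 1 library was left out. For the 40 genes it was 8, with 16 under the replicate block and 0 to 11 when 1 library was left out. For the 5 further pathway lists it was 11, with 18 by DESeq2, 19 by edgeR's exact test, 34 with the replicate block, and 0 to 12 when 1 library was left out. Each count of 0 was without MCF10A replicate 1. The libraries of the same number correlated at 0.55 in their deviations, but 2 pairs do not settle a pairing, and the block is given only here. Among the 40 genes it added calls of SLC16A3, HK2, ALDOC, PDK1, BNIP3 and P4HA1 as higher and of PFKL and NDRG1 as lower. No member changed sign under another scaling or tool in this comparison, and no called member changed sign under any alternative run.

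With Nutlin-3a, 23 genes were called over all genes, 91 by DESeq2, 84 by edgeR's exact test, 99 with no filter, 165 with the replicate block, and 7 to 11 when 1 library was left out. For the 40 genes the count was 0, but 1 (TIGAR) by DESeq2, edgeR's exact test, no filter and the replicate block, and 0 whenever 1 library was left out, when TIGAR had log2 fold changes of 0.63 to 1.05. The block changed no other call among the 40 genes or the further lists. The cause of these shifts was not tested. Counts were low for CA9, ANKRD37 and, in MCF10A, ENO2, EGLN3 and HKDC1 of the further lists, which limits the precision of their values.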
